A study of Homo sapiens with 2 samples.

Results

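The semaphorins, plexins and neuropilins are 31 genes in these data: 20 semaphorins, 9 plexins and 2 neuropilins, taken by gene symbol from the 25343 rows of the deposited table. Expression was measured by RNA-seq in 2 libraries of C4-2B, an androgen-independent prostate cancer line that descends from LNCaP through C4-2. C4-2B Con (n = 1 library) is the enzalutamide-sensitive line, grown in medium containing DMSO alongside the other line. C4-2B ENZR (n = 1 library) is the resistant derivative and was grown in 20 µM enzalutamide, a drug that blocks the androgen receptor. Both lines were grown in the same serum-containing medium, and both titles carry the tag shC, which the labels do not explain. Because ENZR cells were kept in the drug and Con cells were not, lasting resistance and the presence of enzalutamide cannot be told apart, and with 1 library per line the spread between cultures is unknown.

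Semaphorins are secreted or membrane-bound guidance proteins that share an extracellular sema domain, and they were first studied as cues that steer growing axons. Plexins are their main receptors: the sema domain of the plexin binds the ligand, and the cytoplasmic GAP domain acts on small GTPases of the Ras and Rap type, which alters integrin adhesion and the actin cytoskeleton. Most secreted class 3 semaphorins do not bind plexins firmly by themselves and use neuropilins as co-receptors, and neuropilins also bind VEGF. In epithelial tumours members of the family have been tied both to invasion and to its restraint, depending on the ligand and receptor.

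Values are TMM-normalized CPM (counts per 1000000 library reads, scaled by the authors), and 1 read was worth 0.0490 CPM in Con and 0.0404 CPM in ENZR. The libraries held 21024484 and 23479051 reads in genes. A gene with a mean of 1 CPM or more over both libraries is called measured, which held for 13803 genes and for 23 of the 31 members. Folds are plain CPM ratios with an exact 95% binomial interval (Clopper-Pearson) that covers counting error only, while counts of genes past 2-fold use log2 ratios of CPM plus a pseudocount of 1 CPM, which understate the change of low genes. The luminal prostate markers KLK3, KLK2, TMPRSS2, HOXB13, FOLH1, KRT8 and KRT18 were all measured, at a summed 3401 CPM in Con and 2055 CPM in ENZR. KLK3 alone was at 1428 CPM and 3.72 CPM. Of the 7 markers, FOLH1 and KRT8 were higher in ENZR and the other 5 were lower.

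The family was shifted upward in ENZR, with a few members far above the rest. In bulk RNA, more cells with a transcript and more of it per cell cannot be told apart. Of the 23 measured members, 8 were at least 2-fold higher in ENZR, beside 6.69% of all measured genes, and 0 were at least 2-fold lower, beside 4.64%. At 4-fold, 5 members were higher, beside 1.91% of all measured genes, and 0 lower, beside 1.16%. The counting interval lay clear of 1 for 20 members, beside 71.2% of all measured genes. The log2 ratio was above 0 for 20 members and below 0 for 3, whereas 49.5% of all measured genes were above 0. The median log2 ratio was 0.45 over the measured members and -0.0065 over all measured genes. SEMA6A and SEMA6D were measured only through their level in ENZR, so they had to differ. Among the 21 measured members that reached 1 CPM in Con, 6 were at least 2-fold higher and 0 lower, beside 4.65% and 4.81% of the 13321 measured genes under the same condition, and the median was 0.42. At 4-fold, 3 of these 21 were higher and 0 lower, beside 117 and 160 of the 13321 genes. The log2 ratio was above 0 for 18 of the 21, beside 6345 of the 13321. Over all 31 members without the filter, 10 were at least 2-fold higher, beside 3.95% of all rows, and 0 lower, beside 2.65%, and the median was 0.41. All members together took 16093 reads in Con (0.0765% of the library) and 28111 in ENZR (0.120%).

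**Figure D1:**
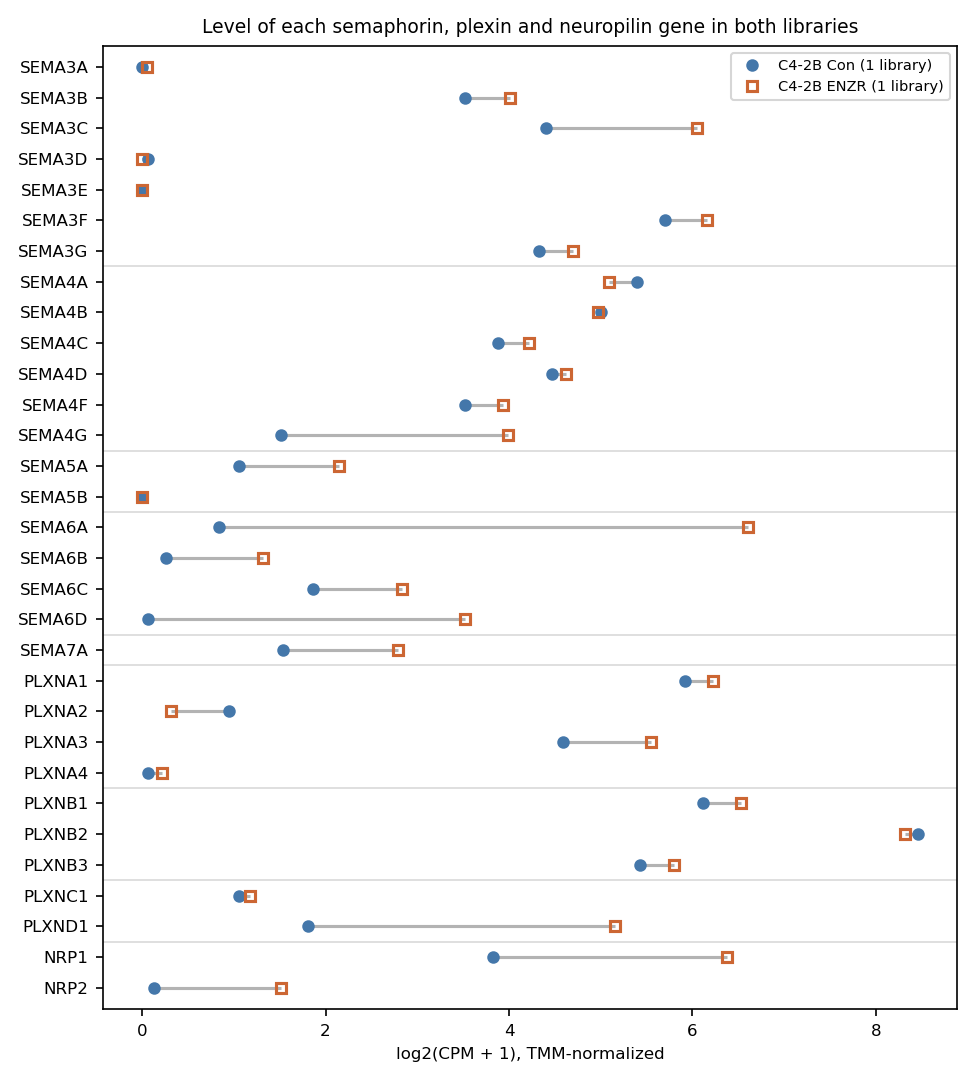
Level of the 31 members in each library, as log2(CPM + 1), with a filled circle for C4-2B Con and an open square for C4-2B ENZR and a grey line joining the pair; grey rules separate the classes. The longest lines belong to SEMA6A, SEMA6D and PLXND1, and SEMA3E and SEMA5B sit at 0 in both libraries.

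**Figure D2:**
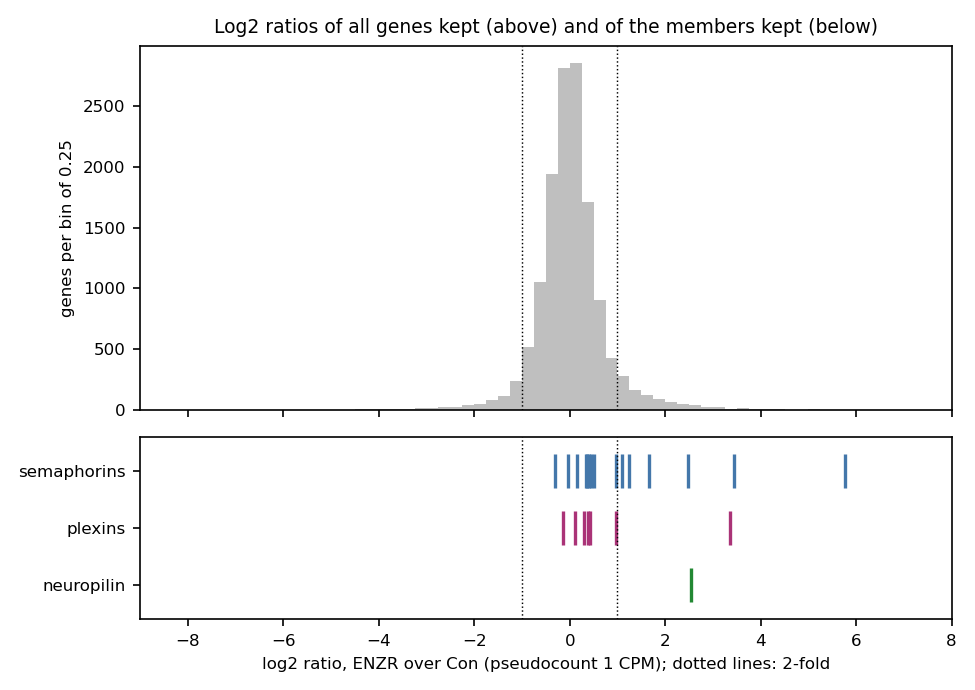
Log2 ratios of ENZR over Con, as a histogram of the 13803 measured genes above and as 1 tick per measured member below, with dotted lines at 2-fold. No member lies left of the lower dotted line and 8 lie right of the upper one.

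The semaphorin with the largest log2 ratio was SEMA6A, a transmembrane ligand. It had 16 reads in Con (0.784 CPM) against 2390 in ENZR (96.6 CPM), so its CPM was 123 times as high (interval 75.8 to 216). Its log2 ratio of 5.77 was number 4 from the top among all measured genes. SEMA6D, a relative with the same layout that is known for roles in heart development and in immune cells, had 1 read in Con against 259 in ENZR (10.5 CPM), 214 times as much (interval 38.0 to 8476). Both genes were thus close to silent in the Con library, and the upper end of the SEMA6D ratio is poorly fixed because it rests on that single read. Antisense genes lie over exons of SEMA6A and NRP1 in GENCODE 29, and if strand was not used in counting, their reads cannot be told apart from those of the members. The same holds for SEMA3F, SEMA4G, SEMA5A, PLXNA3, PLXNC1 and NRP2, whose exons also overlap a gene on the opposite strand; for PLXNA3 it is LAGE3 (34.0 CPM and 40.9 CPM) and for PLXNC1 it is CEP83 (23.8 CPM and 19.2 CPM).

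SEMA6C, the third measured gene of class 6, was at 2.65 CPM in Con against 6.11 CPM in ENZR, a ratio of 2.31 (1.68 to 3.21). Its log2 ratio of 0.96 lay just under the 2-fold line and was 1.06 when the TMM scaling was undone. SEMA6B stayed under the filter with 4 reads in Con against 37 in ENZR, a ratio of 7.64 (2.74 to 29.5). All 4 genes of the class were therefore higher in ENZR, with counting intervals above 1. Summed over the class, 75 reads in Con stood against 2837 in ENZR, 31.2-fold more in CPM (24.8 to 39.8). Without SEMA6A, the class was 6.25-fold higher (4.76 to 8.35). Of its 18.1 CPM in ENZR, 10.5 CPM then came from SEMA6D, which had 1 read in Con.

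Plexin A2 and plexin A4 are the known receptors of SEMA6A and SEMA6B, and both were scarce. PLXNA2 had 19 reads in Con against 6 in ENZR, 3.84-fold lower in ENZR (1.47 to 11.7), the only member whose plain ratio lay more than 2-fold in that direction on at least 3 reads in each library. PLXNA4 had 1 read against 4, a ratio of 3.30 with an interval of 0.327 to 163 that spans 1. Neither receptor reached 1 CPM in either library, so the ligand with the largest log2 ratio had these known plexins at or below 0.931 CPM. PLXNA1, a receptor that SEMA6C and SEMA6D are known to use, was at 59.4 CPM in Con against 73.8 CPM in ENZR, 1.24-fold higher (1.15 to 1.34).

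Plexin D1, best known from blood vessels as the receptor of SEMA3E, showed the largest log2 ratio among the receptors, 3.35. PLXND1 had 51 reads in Con (2.50 CPM) against 859 in ENZR (34.7 CPM), a ratio of 13.9 (10.5 to 18.8). The libraries were far apart for this gene relative to counting error. Its ligand SEMA3E had 0 reads in both libraries, which allows up to 0.147 CPM in Con against 0.121 CPM in ENZR. SEMA4A and SEMA3C, which have also been described as PLXND1 ligands, were both present.

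The proximal sequences of the genes with the widest gaps differ from one another. The RefSeq promoter table (build GRCh38.p14) holds 27 of the 31 members, with NRP1, SEMA3A, SEMA6A and SEMA6B missing, and lists 48 starts for them. The 250 bases before the first listed start are shown for PLXND1, SEMA6D and SEMA4G, the genes with the largest ratios among the measured members in that table, and for PLXNB2, whose level was similar in both libraries. Capitals mark GC boxes, GGGCGG on either strand.
PLXND1 promoter, chr3:129606677-129606926, minus strand: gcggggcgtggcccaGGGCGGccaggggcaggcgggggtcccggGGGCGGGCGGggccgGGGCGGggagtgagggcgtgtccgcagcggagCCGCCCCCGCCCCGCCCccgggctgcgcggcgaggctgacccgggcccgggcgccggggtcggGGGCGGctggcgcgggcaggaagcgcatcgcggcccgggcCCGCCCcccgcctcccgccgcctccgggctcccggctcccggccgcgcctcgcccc
SEMA6D promoter, chr15:47183839-47184088, plus strand: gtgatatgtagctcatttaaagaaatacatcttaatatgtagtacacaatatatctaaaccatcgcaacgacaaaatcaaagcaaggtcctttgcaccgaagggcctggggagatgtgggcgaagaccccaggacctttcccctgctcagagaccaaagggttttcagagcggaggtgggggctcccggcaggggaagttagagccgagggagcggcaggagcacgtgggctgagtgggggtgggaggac
SEMA4G promoter, chr10:100969254-100969503, plus strand: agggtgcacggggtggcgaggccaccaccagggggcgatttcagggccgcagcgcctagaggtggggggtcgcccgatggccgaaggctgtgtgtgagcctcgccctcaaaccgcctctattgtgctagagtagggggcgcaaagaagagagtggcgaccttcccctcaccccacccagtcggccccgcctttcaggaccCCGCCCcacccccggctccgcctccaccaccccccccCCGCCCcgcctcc
PLXNB2 promoter, chr22:50301670-50301919, minus strand: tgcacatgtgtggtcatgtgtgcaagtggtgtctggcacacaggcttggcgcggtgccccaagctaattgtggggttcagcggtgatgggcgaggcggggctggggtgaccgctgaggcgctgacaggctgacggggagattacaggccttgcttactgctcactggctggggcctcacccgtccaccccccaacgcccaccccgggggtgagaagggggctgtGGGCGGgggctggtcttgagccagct

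The PLXND1 window held 9 GC boxes at 88.8% G and C, the SEMA4G window 2 at 71.6% and the PLXNB2 window 1 at 66.4%. In the SEMA6D window no GC box was found and 53.6% of the bases were G or C. However, SEMA6D has 2 further listed starts, at 72% G and C without a GC box and at 74.8% with 2. SEMA4G also has a further listed start, at 52.4% without a GC box. The contrast between these 2 genes thus depends on the start taken, and the data do not tell which start is used. A GC box lay in 30 of the 48 member windows (62.5%), against 42.6% of all 35116 windows in the table, and the median G and C content was 64.8% against 58%. The androgen receptor half-site AGAACA, searched on both strands, was in 0 of the 48 member windows and in 12.4% of all windows. The AP-1 motif TGANTCA was in 1 member window and in 6.57% of all, the E-box CACGTG in 3 (6.25%) and in 6.34% of all, and TATAAA in 1 and in 10.7% of all. The part of base composition in these shares was not tested, several windows of 1 gene overlap, and a match describes letters in this window only.

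The secreted class 3 semaphorins were higher in ENZR for 4 of 4 measured genes, though mostly by small ratios. SEMA3C, a ligand of neuropilins with a known role in prostate cancer cell growth, was at 20.1 CPM in Con (410 reads) against 65.3 CPM in ENZR (1614 reads), 3.25-fold higher (2.91 to 3.63). SEMA3B, SEMA3F and SEMA3G stood much closer together in the 2 libraries. SEMA3B, described as a tumour suppressor on the short arm of chromosome 3, was at 10.4 CPM and 15.2 CPM, 1.45-fold higher (1.23 to 1.73). SEMA3F, its neighbour in that region and a preferred ligand of NRP2, was at 51.1 CPM and 70.4 CPM, 1.38-fold higher (1.27 to 1.49). SEMA3G, first described in the vasculature, was at 19.1 CPM and 24.9 CPM, 1.30-fold higher (1.14 to 1.48). The remaining 3 genes of the class were at the edge of detection: SEMA3A, the founding axon repellent, had 0 reads and 1 read, SEMA3D 1 read and 0 reads, and SEMA3E none. Summed over the class, CPM was 1.74-fold higher in ENZR (1.65 to 1.84).

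Neuropilins, through which those ligands act, were both higher. NRP1, the co-receptor of SEMA3A and of VEGFA, had 269 reads in Con (13.2 CPM) against 2030 in ENZR (82.1 CPM), a ratio of 6.23 (5.48 to 7.10). NRP2 had 2 reads against 46, a ratio of 19.0 (4.97 to 161), and its mean of just under 1 CPM kept it out of the measured genes. Per kilobase of transcript, NRP1 made up 99.3% of the neuropilin total in Con and 98.0% in ENZR, so NRP1 was the neuropilin of both lines by this measure.

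**Figure D3:**
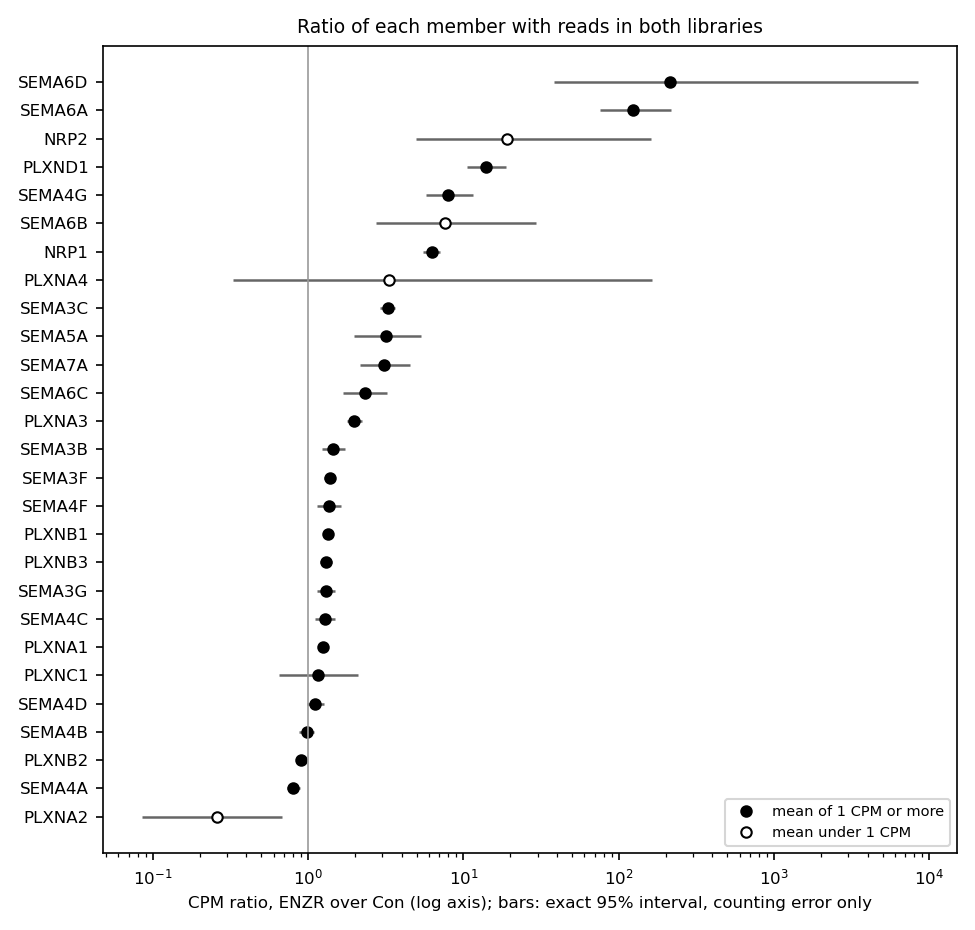
CPM ratio of ENZR over Con on a log axis for the 27 members with reads in both libraries, with exact 95% counting intervals as bars; filled points are measured genes and open points have a mean under 1 CPM. Most intervals lie right of 1, and the widest belong to SEMA6D, NRP2 and PLXNA4, which rest on 1 or 2 reads in Con.

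Class 4 semaphorins, transmembrane ligands that chiefly act on B plexins, were all measured and mostly similar in the libraries. SEMA4G, a little-studied member that binds plexin B2, was the exception at 1.86 CPM in Con (38 reads) against 14.8 CPM in ENZR (367 reads), 7.97-fold higher (5.70 to 11.4). An exon of SEMA4G overlaps the ribosomal protein gene MRPL43 on the opposite strand in GENCODE 29, and the use of strand in counting is not given in the sources used here. MRPL43 was at 35.9 CPM in Con against 29.8 CPM in ENZR, and its part in the SEMA4G values was not tested.

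SEMA4F (10.4 CPM and 14.2 CPM) and SEMA4C (13.7 CPM and 17.6 CPM) were 1.36-fold and 1.28-fold higher, with intervals of 1.15 to 1.62 and 1.10 to 1.49. SEMA4D, the classical plexin B1 ligand, was at 21.1 CPM and 23.5 CPM, and its interval of 0.982 to 1.27 spans 1. SEMA4B was at 31.0 CPM and 30.3 CPM (0.879 to 1.09), a difference within counting error whose direction turned with the scaling. SEMA4A, known from T cells and the retina, was the only semaphorin that was lower in ENZR beyond counting error, at 41.2 CPM and 33.1 CPM, 1.24-fold lower (1.13 to 1.37). The class as a whole was 1.12-fold higher in ENZR (1.06 to 1.18), but without SEMA4G its ratio was 1.01 (0.958 to 1.07).

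The single measured gene of class 5 and the single gene of class 7 were about equally far apart. SEMA5A, whose thrombospondin repeats bind proteoglycans, had 22 reads in Con against 85 in ENZR (1.08 CPM and 3.44 CPM), 3.19-fold higher (1.98 to 5.35). SEMA7A, a GPI-anchored ligand of plexin C1 and of beta1 integrin, had 39 reads and 146 reads (1.91 CPM and 5.90 CPM), 3.09-fold higher (2.16 to 4.52). SEMA5B had 0 reads in both libraries. PLXNC1, the plexin of SEMA7A, had 22 reads and 31 reads, and its interval of 0.652 to 2.11 left the difference undetectable at this depth.

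B plexins carried most plexin transcripts in both lines, and their summed level was nearly equal in TMM-normalized CPM. PLXNB2, a receptor for class 4 semaphorins, was at 351 CPM in Con (7170 reads) against 317 CPM in ENZR (7844 reads), 1.11-fold lower (1.07 to 1.14). PLXNB1, the SEMA4D receptor that can associate with MET and ERBB2, was at 68.2 CPM and 91.6 CPM, 1.34-fold higher (1.26 to 1.44). PLXNB3, a receptor of SEMA5A, was at 41.9 CPM and 54.7 CPM, 1.31-fold higher (1.198 to 1.42). These opposite small differences left the B class sum at a ratio of 1.00 (0.978 to 1.03). With the TMM scaling undone, the log2 ratio of PLXNB2 went from -0.15 to -0.03. Those of PLXNB1 and PLXNB3 went from 0.42 to 0.54 and from 0.38 to 0.49. The near-equal sum thus depends on the scaling, which the interval does not cover. PLXNA3, which pairs with neuropilins for class 3 signals, was at 23.0 CPM and 45.7 CPM, 1.99-fold higher (1.78 to 2.22), with a log2 ratio of 0.96 that became 1.07 with the TMM scaling undone.

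Dividing CPM by the longest coding transcript in GENCODE 29 allowed levels to be set side by side between genes. SEMA6A had 0.114 CPM per kb in Con and 14.1 in ENZR, and its share of the semaphorin total went from 0.202% to 14.99%. SEMA4A and SEMA3F together headed the Con library at 22.1% and 23.8%, and in ENZR they held 10.7% and 19.7%. SEMA3C went from 6.87% to 13.5%. Divided by coding length in place of transcript length, the ENZR shares were 17.9% for SEMA6A, 17.4% for SEMA3F and 16.9% for SEMA3C, so the order of these 3 genes in ENZR depends on the length used. Among plexins, PLXNB2 held 68.6% in Con and 56.3% in ENZR, or 65.7% and 52.9% by coding length, and PLXND1 went from 0.439% to 5.55%. In both libraries and by both lengths PLXNB2 therefore had more than any other plexin.

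**Figure D4:**
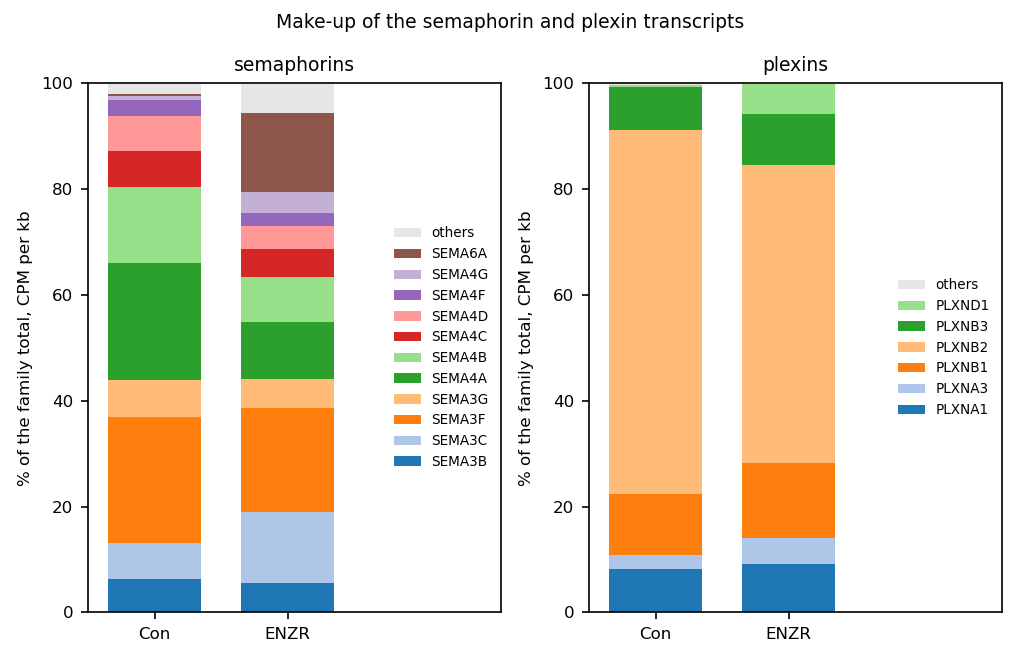
Share of each gene in the semaphorin total (left) and the plexin total (right) in CPM per kb of transcript, for Con and ENZR; genes under 3% in both libraries are pooled as others. SEMA6A takes 14.99% of the semaphorin total in ENZR, and PLXNB2 is the largest block of the plexins in both libraries.

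The genes that flank the members in the genome were compared next, as a description chosen after the values were known. For each measured member the 5 nearest measured genes on either side in the RefSeq order were taken. The 10 neighbours of SEMA6A on chromosome 5 had a median log2 ratio of -0.38, with the highest at 0.21. Those of NRP1 on chromosome 10 had a median of 0.15 and those of PLXND1 on chromosome 3 a median of 0.0046, and in neither set was a gene at least 2-fold higher. For SEMA6D on chromosome 15 the median was 0.76, and 5 of its 10 neighbours were at least 2-fold higher, beside 6.69% of all measured genes. These 5 were HMGN2P46 (1.77), SHC4 (1.59), SQRDL (1.35), SLC30A4 (1.19) and MYEF2 (1.01), each value being a log2 ratio. SEMA3C on chromosome 7 lies next to HGF, the ligand of the MET receptor, among measured genes, and HGF had a log2 ratio of 5.57. PCLO, on the far side of HGF, was at 1.56, whereas the median of all 10 neighbours of SEMA3C was 0.079 and GNAI1, on its other side, was at -2.0.

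Partner genes of the pathway lay on both sides of 0. Of 72 listed partners, 56 were measured, 31 with a log2 ratio above 0 and 25 below, and their median log2 ratio was 0.08. By 2-fold or more, 7 were higher, beside 6.69% of all measured genes, and 1 was lower, beside 4.64%. Among those 7, MMP14 and PAK3 were measured only through their level in ENZR, so they had to be higher. The same holds for L1CAM and PGF, which stayed under the 2-fold line. Of the 52 measured partners that reached 1 CPM in Con, 5 were at least 2-fold higher and 1 was lower, beside 4.65% and 4.81% of all such genes, and the median was 0.047. Among co-receptors, PTK7, a pseudokinase that associates with plexins, was at 35.2 CPM in Con against 114 CPM in ENZR, 3.25-fold higher (2.99 to 3.53). MET, a partner of plexin B1, was at 26.3 CPM and 25.6 CPM (0.867 to 1.10), and ERBB2 at 173 CPM and 240.04 CPM. L1CAM, a neuropilin-associated adhesion molecule, had 10 reads against 39, a ratio of 3.22 (1.58 to 7.23). KDR, the main VEGF receptor of endothelium, had 4 reads and 16 reads.

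Of the VEGF ligands of neuropilins, VEGFA and VEGFB were lower in ENZR and PGF was higher. VEGFA was at 105 CPM in Con against 84.2 CPM in ENZR, 1.25-fold lower (1.18 to 1.33), and VEGFB at 7.89 CPM and 3.52 CPM, 2.24-fold lower (1.72 to 2.94). PGF had 12 reads against 49, a ratio of 3.37 (1.77 to 6.96), but it was measured only through its level in ENZR. VEGFC and FIGF had 0 reads in both libraries.

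MMP14, a membrane metalloprotease that can shed SEMA4D, had the largest log2 ratio of the partners but was under 1 CPM in Con, with 8 reads in Con against 253 in ENZR (10.2 CPM), a ratio of 26.1 (13.0 to 61.1). FURIN, the convertase that processes class 3 semaphorins, was 1.604-fold higher (1.43 to 1.7996), and its relative PCSK6 was 1.76-fold lower (1.59 to 1.95). Close to the plexins, MRAS, a Ras-family GTPase, was 2.996-fold higher (2.49 to 3.62) and SH3BP1, a Rac GAP that binds plexin, 2.31-fold higher (2.09 to 2.56).

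Among the 22 measured cytoskeletal effectors, 3 were at least 2-fold higher, beside 6.69% of all measured genes, and 1 was lower, beside 4.64%. Of these 3, PAK3 was measured only through its level in ENZR. DPYSL5 and DPYSL2, collapsin response mediators that relay semaphorin signals to microtubules, were 4.58-fold (3.71 to 5.71) and 2.32-fold (2.04 to 2.63) higher. PAK3, a kinase downstream of Rac, had 1 read against 58, a ratio of 47.9 (8.26 to 1923). EVL, an actin regulator that binds the tail of SEMA6A, was the lower one, at 46.2 CPM in Con against 19.5 CPM in ENZR, 2.36-fold lower (2.12 to 2.64). DPYSL4 was at 6.32 CPM and 2.91 CPM, a plain ratio 2.17-fold lower in ENZR (1.61 to 2.94), although its log2 ratio of -0.90 did not reach the 2-fold line.

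**Figure D5:**
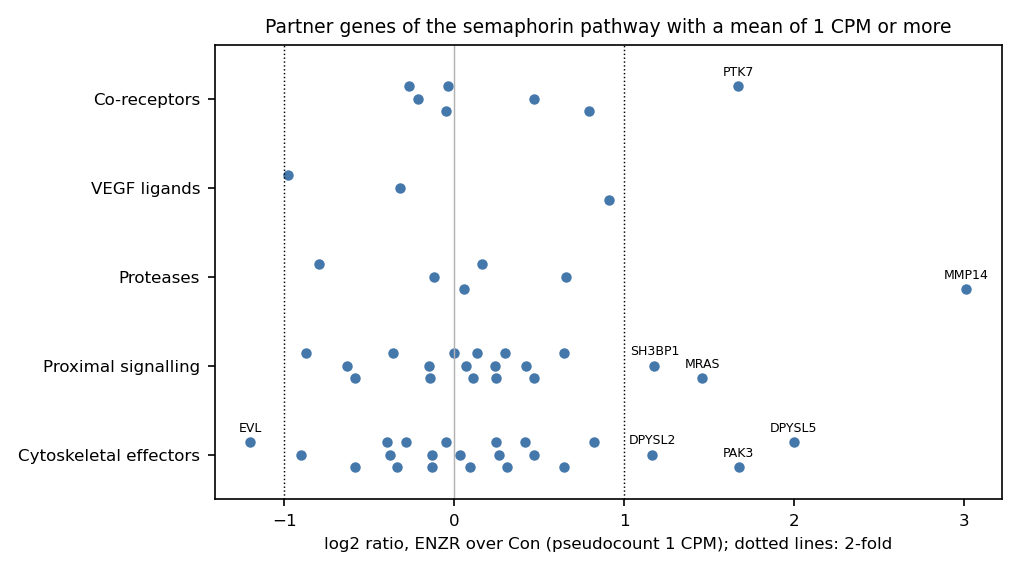
Log2 ratio of ENZR over Con for the 56 measured partner genes, 1 point each, in rows by role, with dotted lines at 2-fold and the genes beyond them named; vertical offsets within a row carry no value. Points spread to both sides of 0 in each role, with MMP14 farthest right and EVL alone beyond the lower line.

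Markers of other cell types that make NRP1, PLXND1 or SEMA6A were set beside these results. Of 5 endothelial markers, CDH5 had 0 reads and TEK 1 read in each library. PECAM1 had 32 reads in Con and 41 in ENZR, CLDN5 13 and 18, and VWF 182 and 72. The summed endothelial level was 11.2 CPM in Con against 5.34 CPM in ENZR, most of it VWF. Of 5 fibroblast markers, COL1A2 had 0 reads in both libraries, and the sum was 20.6 CPM and 47.4 CPM, mostly COL1A1. LUM had 0 reads in Con and 32 in ENZR, DCN 0 and 2, and PDGFRB 50 and 41. The 4 leukocyte markers used summed to 0.490 CPM and 0.243 CPM, with CD3E at 0 reads in both. Of 5 neuronal and glial markers, SNAP25 had 0 and 2 reads and GFAP 0 and 1, and the sum of 10.6 CPM and 25.4 CPM came mainly from MAP2. The part of such cells in the member values was not tested.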

How the data were processed

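The authors' deposited table gives 1 signal value per gene and library, described as TMM-normalized CPM. Per the submitters' processing notes, Bowtie2 2.1.0, RSEM 1.2.15, edgeR and the build hg19 were used, without a role for each; gene annotation, strand and filters: not given in the sources used here. Further columns of sample values in the table numbered 0. Each column is made of whole multiples of 1 step, so reads per gene were recovered, 100% of values coming out whole (tolerance 0.01 reads); RSEM shares out reads that map to several genes, so these may be rounded estimates. The columns sum to 1030021 and 949450 CPM. With 1 library per group no replicate error exists, so the conditions were not tested and p-values are absent. Log2 ratios used a pseudocount of 1 CPM, and a gene counted as measured at a mean of 1 CPM or more. Ratios carry exact 95% binomial intervals. These, and the floor of 3 reads allowed by a count of 0, cover counting error only.

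Members and the 72 partner genes were chosen with earlier results of these data known. All 31 members are named, and of the partners those past 2-fold, the VEGF ligands, MET, KDR and L1CAM; further partners named (ERBB2, FURIN, PCSK6, DPYSL4) were picked after their values were seen. Alternatives changed the pseudocount, the filter and the scaling. Transcript and coding lengths came from GENCODE 29, whose build differs from hg19, and all 31 members matched. For gene order, 97.8% of measured genes matched RefSeq. The calculation was tested on simulated reads. Of the listed marker genes, 1 is not reported here. Python 3.11.15, NumPy 2.4.6, pandas 2.3.3, SciPy 1.17.1 and Matplotlib 3.10.9 were used.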

Additional observations from a re-analysis of the deposited data

How the results depend on the processing

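The median log2 ratio of the measured members lay between 0.40 (pseudocount of 5 CPM) and 0.59 (TMM scaling undone) over 8 alternatives, and the number at least 2-fold higher between 6 and 11, while 0 members were at least 2-fold lower in each of them. Over all genes in the same settings, 3.24% to 7.85% were higher and 2.65% to 5.25% lower by 2-fold. Undoing the TMM scaling moved the median of all measured genes to 0.10, so part of the 0.59 is that shift. In that setting 24 members were measured, 22 above 0 and 2 below, and the share of all genes above 0 was not counted. SEMA4B turned from a log2 ratio of -0.031 to 0.083 on plain CPM without TMM factors, 0.021 under upper quartile scaling and 0.081 once the 10 most abundant genes were dropped. The log2 ratio of PLXNB2 came as near to 0 as -0.03. With a pseudocount of 0.5 CPM, 2 partner genes in place of 1 were at least 2-fold lower, which follows from the smaller pseudocount. With a pseudocount of 5 CPM, SEMA6A was at 4.14, PLXND1 at 2.41, NRP1 at 2.26, SEMA6D at 1.62, SEMA4G at 1.53, SEMA3C at 1.49, SEMA7A at 0.66 and SEMA5A at 0.47, the last 2 then under the 2-fold line. No paired analysis was possible because each group has 1 library. Depth limits SEMA6A, SEMA6D, SEMA6B, SEMA5A, NRP2, PLXNA2, PLXNA4 and PLXNC1, which had at most 22 reads in Con.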
